A study of Mus musculus with 16 samples.

Results

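The genes described here are 9 regulators and matrix genes of cartilage and bone, followed in mouse aortic smooth muscle cells: Sox9, Sox5, Sox6, Acan, Runx2, Tnfrsf11b, Mgp, Alpl and Comp. They were taken by symbol from the annotation of the array, which lists 20 of the 45101 probe sets under 8 of the 9 names. No probe set is listed under Runx2, the master transcription factor of osteoblasts, so its level was not analysed here. Of the 20 probe sets, 18 had a signal above 16 on at least 3 arrays and were tested, and all 8 listed genes had at least 1 of them.

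The cells were cultured from aortas stripped of their adventitia, from mice of a mixed C57BL/6 and 129SvJ background, and were used at passage 10 to 20. One group was wild type and the other a knockout of Hey2, a Hairy-related transcriptional repressor that acts downstream of Notch in vascular cells. All cultures were held for 48 h in 0.4% serum and then received human PDGF-BB at 5 ng/ml, a growth factor that drives smooth muscle cells to divide and migrate. RNA was taken at 0, 15, 30, 60, 120, 180, 240 and 480 min, with 1 array for each genotype and time, which gives 8 arrays per genotype and 16 in all. The number of mice or cell isolates per genotype is unstated, so the p-values measure the spread between these arrays, and a difference between genotypes cannot be told apart from one between 2 cell isolates. Whole cultures were measured, so fewer cells of a type and less RNA per cell cannot be told apart either.

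Sox9 is the transcription factor that commits cells to cartilage, and Sox5 and Sox6 are its partners on cartilage enhancers. Acan encodes aggrecan, the large proteoglycan of cartilage, and Comp a pentameric thrombospondin of cartilage and vessel wall; both are known Sox9 targets in chondrocytes. Tnfrsf11b encodes osteoprotegerin, a decoy receptor for the osteoclast factor RANKL. Mgp, matrix Gla protein, is an inhibitor of arterial calcification, and Alpl, tissue-nonspecific alkaline phosphatase, removes the pyrophosphate that blocks mineral growth. In the artery wall these genes are followed because smooth muscle cells can take on features of cartilage and bone cells when vessels calcify.

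The deposited arrays differed in overall brightness, with 2% trimmed means between 81.0 and 342.5, and all signals given here were quantile normalized. At 6 of the 8 times the 2 genotypes' deviations correlated with r between 0.38 and 0.523 over genes, but at 60 min r was -0.33 and at 480 min -0.375. The wild-type library labelled 60 min matched the knockout library labelled 480 min best (r = 0.572), and the wild-type library labelled 480 min matched the knockout library labelled 60 min best (r = 0.459), so results are also given without these 2 times. The 3'/5' signal ratio of Actb, an RNA quality control, was 2.41 to 3.88 at 0 to 30 min and 1.53 to 1.84 at 120 to 240 min in wild type, and 1.95 to 3.71 and 1.54 to 2.44 in the knockout. Hey2 itself was at 14.0 to 113.3 over the wild-type arrays and at 23.3 to 63.3 over the knockout ones. Its lowest value, in wild type at 120 min, lay below the filter signal of 16. The average difference over the times was -0.19 ± 0.317 (log2, SE, adjusted p = 0.696). At 0 to 30 min the wild-type arrays lay higher (100.7 to 113.3 against 34.3 to 63.3 in the knockout), and at 120 to 240 min lower (14.0 to 19.3 against 23.3 to 41.0). The knockout change minus the wild-type change between these times was 1.93 ± 0.355 (adjusted p = 0.0261). No source used here says whether its probe set lies in the deleted part, so it does not check the labels.

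The RefSeq promoter table (GRCm38.p6) held windows for 5 of the 9 genes, and 2 are printed because their genes' signals differed between genotypes or with time, Sox5 and Acan. Each line gives the 250 bases before a listed start, 5′ to 3′ on the gene's strand. The letters CACGTG and CACGCG (E-box and class C sites, bound by Hey-type factors), TGTGGT (the RUNX core), ACAAAG and ACAATG (SOX-type sites) and TGANTCA (AP-1) were searched on both strands, and matches are in capitals.
Sox5, chr6:143947107-143947356, minus strand: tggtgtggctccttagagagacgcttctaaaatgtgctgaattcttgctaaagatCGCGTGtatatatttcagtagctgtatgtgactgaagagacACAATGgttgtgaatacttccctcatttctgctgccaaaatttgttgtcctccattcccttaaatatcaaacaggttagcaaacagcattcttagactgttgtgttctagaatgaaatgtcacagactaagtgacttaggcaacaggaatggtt
Acan, chr7:79052976-79053225, plus strand: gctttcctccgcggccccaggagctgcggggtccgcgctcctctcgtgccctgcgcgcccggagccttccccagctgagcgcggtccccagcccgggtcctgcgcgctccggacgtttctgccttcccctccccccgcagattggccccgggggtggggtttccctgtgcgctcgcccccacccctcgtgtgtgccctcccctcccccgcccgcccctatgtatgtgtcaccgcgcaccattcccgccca

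The Sox5 window, which precedes a start inside the gene's span, held the class C letters, on the other strand, 195 bases before the start and a SOX-type site 154 bases before it. The Acan window held none of the searched letters. Of all 32851 windows of this length, 7.62% held the class C letters, 10.7% the second and 16.5% the first SOX-type site, 14.0% the RUNX core, 6.75% the AP-1 letters and 6.02% the E-box, and no window of the genes studied here held the E-box. The matches describe letters, not binding. The data hold no measurement of Hey2 binding.

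Sox9, Sox5 and Tnfrsf11b were lower in the knockout at every one of the 8 times, on average over the times by 3.38-, 3.76- and 3.41-fold, and Comp was 1.49-fold higher in the fit over all times. Mgp, the most abundant signal of the group, Alpl, Sox6 and Acan did not pass the test between genotypes, which compared time-matched arrays over all 14299 genes tested at an adjusted p of 0.05. In all, 3 of the 8 genes were lower against 14.1% of all genes (2023), 1 was higher against 16.6% (2370), and 4 were called in either direction against 30.7% (4393). Without the 60 and 480 min arrays the counts were 3 lower (20.2% of all genes) and 1 higher (20.9%), with Sox6 in place of Comp. How many of all genes were lower at every time was not counted.

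**Figure D1:**
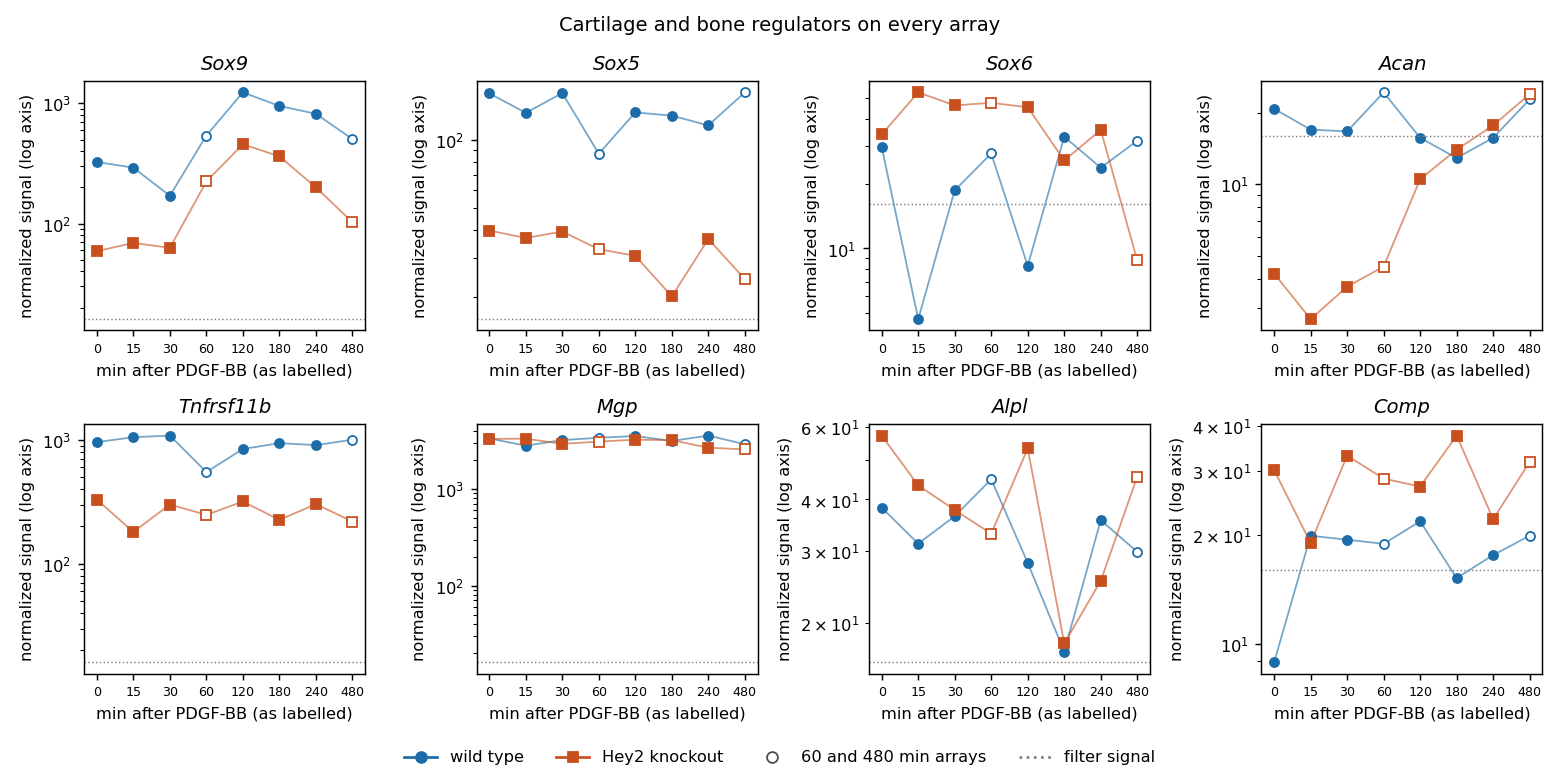
Normalized signal (log axis) of the 8 genes against labelled minutes after PDGF-BB, with 1 array per point, wild type as circles, Hey2 knockout as squares, 60 and 480 min as open symbols and the filter signal of 16 as a dotted line. Sox9, Sox5 and Tnfrsf11b run below wild type in the knockout at all 8 times, Sox9 peaks at 120 min in both genotypes, and Acan in the knockout climbs from 4.2 to 24.0.

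Sox9 (chr11:112782210-112787757) showed both a difference between genotypes and a change over time after PDGF-BB. No time course without PDGF-BB was analysed here, so a change over time is not separated from one that the medium or handling brings. In wild type its signal was 324.9, 291.4 and 170.2 at 0, 15 and 30 min, 539.7 at 60 min, 1233.6, 950.5 and 818.4 at 120, 180 and 240 min, and 504.1 at 480 min. In the knockout it was 58.9, 68.9 and 62.8 at the 3 early times, 223.8 at 60 min, 456.5, 362.0 and 199.8 at 120 to 240 min, and 102.6 at 480 min. Both courses rose to a peak at 120 min and then declined, and the knockout was lower at each time. The time-matched difference was -1.76 ± 0.146 (log2, SE; adjusted p = 8.414e-06), 3.38-fold, and single times ran from -2.37 to -1.25. Without 60 and 480 min it was again -1.76 (adjusted p = 1.135e-06).

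From the early arrays (0, 15 and 30 min) to the late ones (120, 180 and 240 min), Sox9 rose 3.85-fold in wild type, by 1.94 ± 0.282 (log2, SE; adjusted p = 0.0001283). In the knockout it rose 4.78-fold, by 2.26 ± 0.282 (adjusted p = 0.0001107). The difference between the 2 changes was 0.31 ± 0.398 (adjusted p = 0.837), which at this precision does not show whether the genotypes changed alike. By level, the order was late wild type (1001 ± 212, SD, n = 3), late knockout (339 ± 130), early wild type (262 ± 81.4) and early knockout (63.5 ± 5.06). The late knockout and early wild-type arrays overlapped, between 199.8 and 324.9, and the other neighbours in that order did not. Sox9 was the only one of the 8 genes called from early to late in wild type, against 37.3% of all genes (5328; 15.3% higher and 22% lower). With the 60 min arrays counted as early and the 480 min arrays as late, the rises were 1.43 (adjusted p = 0.109) and 1.42 (adjusted p = 0.113) and were no longer called. The Actb ratio given above moved with the same contrast, and its part in the rise was not tested.

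A second Sox9 probe set was also lower in the knockout and also rose in both genotypes, but it rose less in the knockout than in wild type. Its knockout values were 45.0 to 214.2 and its wild-type values 128.3 to 823.4, with the knockout lower at all 8 times (-1.86 ± 0.180, adjusted p = 2.088e-05 over all 26178 probe sets tested). It rose by 2.14 in wild type (adjusted p = 5.525e-05) and by 1.20 in the knockout (adjusted p = 0.00981), and the difference between these changes was -0.94 ± 0.394 (adjusted p = 0.436), opposite in sign to that of the brighter probe set and not called in either. The remaining one was dim, at 1.9 to 36.3 over the 16 arrays, and was called in neither comparison between genotypes nor over time (genotype difference -0.37 ± 0.352, adjusted p = 0.474).

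**Figure D2:**
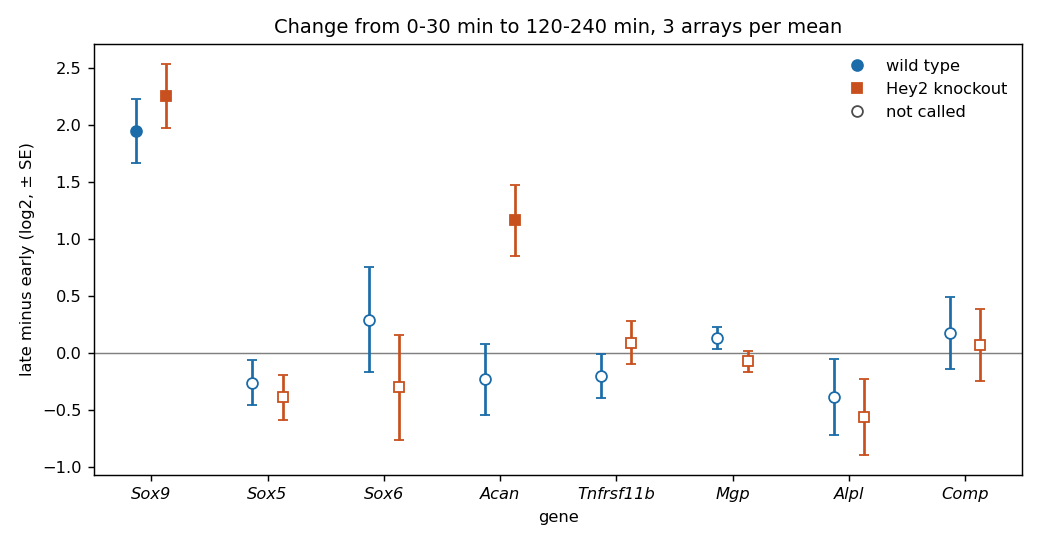
Change in log2 signal from 0, 15 and 30 min to 120, 180 and 240 min for the 8 genes, wild type as circles and Hey2 knockout as squares, with standard errors of the fit; filled symbols passed an adjusted p of 0.05. Sox9 rose in both genotypes (1.94 and 2.26), and Acan passed the test in the knockout (1.16).

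Sox5 (chr6:143828425-144782287), which encodes a SOX protein without an activation domain of its own, was separated by genotype with no overlap. The lowest, median and highest signals were 86.8, 132.3 and 162.7 in wild type and 20.2, 34.5 and 39.6 in the knockout. All 8 knockout arrays thus lay below all 8 wild-type arrays, and the lowest wild-type value was the one labelled 60 min. The share of all genes without overlap was not counted, so this separation is not shown to be particular to Sox5. The difference was -1.91 ± 0.1499 (adjusted p = 5.27e-06), 3.76-fold, with single times between -2.54 and -1.29. Unlike Sox9, Sox5 was called from early to late in neither genotype: the changes were -0.26 ± 0.196 in wild type (adjusted p = 0.338) and -0.39 ± 0.196 in the knockout (adjusted p = 0.192). Whether Sox9 and Sox5 differed in their change over time was not tested.

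Of the 7 Sox5 probe sets, 6 were tested and 4 were lower in the knockout, by -1.91, -1.56, -1.39 and -1.21, each at all 8 times. The other 2 tested were dim (2.6 to 26.4 over the 16 arrays) and had differences of -0.10 ± 0.260 and -0.03 ± 0.220. The 7th never rose above the filter signal of 16. The 4 called probe sets were thus the brightest ones, and the 2 without a called difference the dimmest ones tested.

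Sox6 (chr7:115470872-116040776), the close relative of Sox5, had low signals that overlapped between genotypes. They were 4.7 to 33.0 in wild type with a median of 25.7, and 8.8 to 53.0 in the knockout with a median of 40.3. The knockout was higher at 6 of the 8 times and lower at 180 and 480 min. The difference of 0.66 ± 0.377 was not called (adjusted p = 0.218). It was 0.999 and called without 60 and 480 min (adjusted p = 0.0335), and it was called without 480 min alone (adjusted p = 0.0393). As the mean of its probe sets it was called as well (0.84, adjusted p = 0.0236). On the deposited scale it was called at 0.92 (adjusted p = 0.0244), but there the median of all genes was itself shifted by 0.28. A second probe set was higher at 7 of the 8 times (0.99 ± 0.264, adjusted p = 0.016), and another at 6 (0.88 ± 0.309, adjusted p = 0.0533). The 4th was not tested. Over all times, all 3 Sox6 differences were above 0, with 1 of them called, at signals close to the filter. Without 60 and 480 min all 3 were called in the fit of single probe sets (adjusted p = 0.035, 0.0027 and 0.0403).

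**Figure D3:**
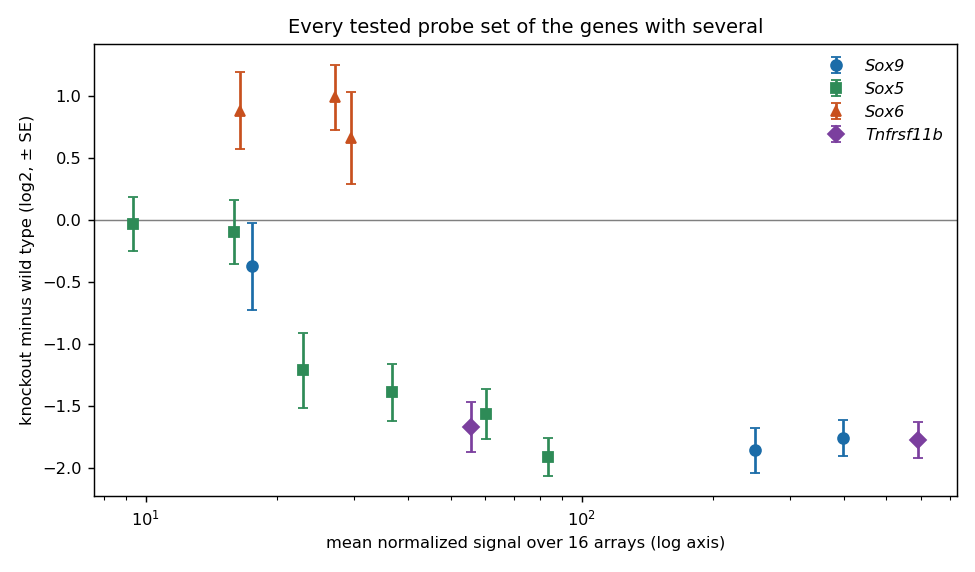
Difference between genotypes (log2, knockout minus wild type, ± SE of the fit) against mean normalized signal (log axis) for each tested probe set of Sox9, Sox5, Sox6 and Tnfrsf11b. The brighter Sox9, Sox5 and Tnfrsf11b probe sets lie between -1.21 and -1.91, and the dimmest Sox5 ones near 0, while the 3 for Sox6 lie between 0.66 and 0.99.

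Acan (chr7:79053226-79115099) was dim in both genotypes, near the filter signal of 16 in wild type and well below it in the knockout up to 60 min. In wild type the signal was 20.8, 17.0, 16.7 and 24.4 at 0, 15, 30 and 60 min and 15.7, 12.9, 15.7 and 22.8 at 120, 180, 240 and 480 min. In the knockout it was 4.2, 2.7, 3.7 and 4.5 at the first 4 times and then 10.5, 14.0, 17.7 and 24.0. The knockout thus started below every wild-type array and ended among them, and 5 wild-type and 2 knockout arrays exceeded 16. The difference (log2) was -1.64 to -1.33 at 0 to 60 min and -0.41 at 120 min, and at 180 to 480 min it lay between 0.06 and 0.13. Averaged over all times the difference was -0.77 ± 0.276 (adjusted p = 0.0561), which missed the threshold, and it passed when 180 min (adjusted p = 0.0488), 240 min (0.045) or 480 min (0.0386) was left out.

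From early to late, Acan rose in the knockout, by 1.16 ± 0.310 on the log2 scale (adjusted p = 0.0179), and its change in wild type was -0.23 ± 0.310 (adjusted p = 0.616). The early knockout signals lay below the offset added before the log2 scale, so the size of the rise depends on it: it was 1.60 with the offset divided by 3 (adjusted p = 0.0138) and 0.66 with it multiplied by 3 (adjusted p = 0.0268). With Sox9, that made 2 of 8 genes called in the knockout, both higher, against 8.74% of all genes higher (1250), 10.7% lower (1525) and 19.4% in either direction (2775). The difference between the 2 changes was 1.39 ± 0.438, with an unadjusted p of 0.00683 in the limma fit and an adjusted p of 0.214, so a different change in the knockout was not established. None of the 8 genes was called for that difference, against 0.769% of all genes (110), and Acan was the only one with an unadjusted p under 0.05. The knockout rise lost its call without the knockout array of 15 min (adjusted p = 0.0528), of 180 min (0.052) or of 240 min (0.083), and on the deposited scale (1.33, adjusted p = 0.336). It kept it with 60 and 480 min added as labelled (1.28, adjusted p = 0.0363).

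Comp (chr8:70373548-70382066) ran from 8.9 to 21.8 in wild type (median 19.2) and from 19.0 to 37.6 in the knockout (median 29.4). The knockout was higher at 7 of the 8 times, with 15 min the exception at 19.0 against 19.9. The difference of 0.58 ± 0.182 (adjusted p = 0.033) amounted to 1.49-fold at a signal close to the filter. The call was lost without 0 min (adjusted p = 0.0839), 30 min (0.0687), 180 min (0.0871) or 480 min (0.0508), without both 60 and 480 min (0.59, adjusted p = 0.063) and on the deposited scale (0.82, adjusted p = 0.0589). Over time Comp was called in neither genotype (0.18 ± 0.316 in wild type and 0.07 ± 0.316 in the knockout). Of the 2 Sox9 targets among the 9 genes, both dim, neither was thus called lower in the fit over all times. Acan missed the threshold there and Comp was higher. Col2a1, a Sox9 target outside the 9 genes, was called lower (-4.63 ± 0.176, adjusted p = 2.663e-08). It had the largest difference of 13 tested cartilage matrix genes, of which 4 were lower, 2 higher and 7 not called. Col9a1 (-0.67, adjusted p = 0.1415) and Col11a2 (-0.26, adjusted p = 0.24) were among those not called. Whether Sox9 had a part in any of these differences was not tested.

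Tnfrsf11b (chr15:54250619-54278484), the RANKL decoy, had no overlap between genotypes either, again without a count of such genes among all genes. Its wild-type signals had a lowest value of 549.6, a median of 949.6 and a highest value of 1082.7, and the knockout ones were 180.6, 274.3 and 329.1. The lowest wild-type array, labelled 60 min, was still above all 8 knockout arrays. The difference was -1.77 ± 0.144 (adjusted p = 7.086e-06), 3.41-fold, and -1.81 without 60 and 480 min (adjusted p = 4.86e-07). Single times ran from -2.51 to -1.13. The second probe set, at 62.0 to 119.3 in wild type and 8.8 to 40 in the knockout, was lower at all 8 times too (-1.67 ± 0.20, adjusted p = 0.0001013). No change over time was called: -0.20 ± 0.191 in wild type (adjusted p = 0.458) and 0.09 ± 0.191 in the knockout (adjusted p = 0.789).

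Mgp (chr6:136872435-136875823) was bright and flat. It ran from 2815.8 to 3583.0 in wild type (median 3282.8) and from 2575.6 to 3326.4 in the knockout (median 3157.6), and the genotypes overlapped. The difference was -0.09 ± 0.068 (adjusted p = 0.346), and the late minus early changes were 0.13 ± 0.093 and -0.07 ± 0.093. On the deposited scale, where the median of all genes was itself shifted by 0.28 between genotypes, the Mgp difference was 0.27. Alpl (chr4:137741731-137796384) was dim, at 17.0 to 44.8 in wild type and 17.8 to 57.3 in the knockout, with both lowest values at 180 min. Its difference was 0.20 ± 0.171 (adjusted p = 0.419), and its changes over time were -0.38 ± 0.334 in wild type and -0.56 ± 0.334 in the knockout (adjusted p = 0.272). The Alpl change in the knockout passed the test only when the 120 min knockout array was left out (adjusted p = 0.049). Neither of the 2 mineralization genes therefore showed a called difference between genotypes in these arrays.

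**Figure D4:**
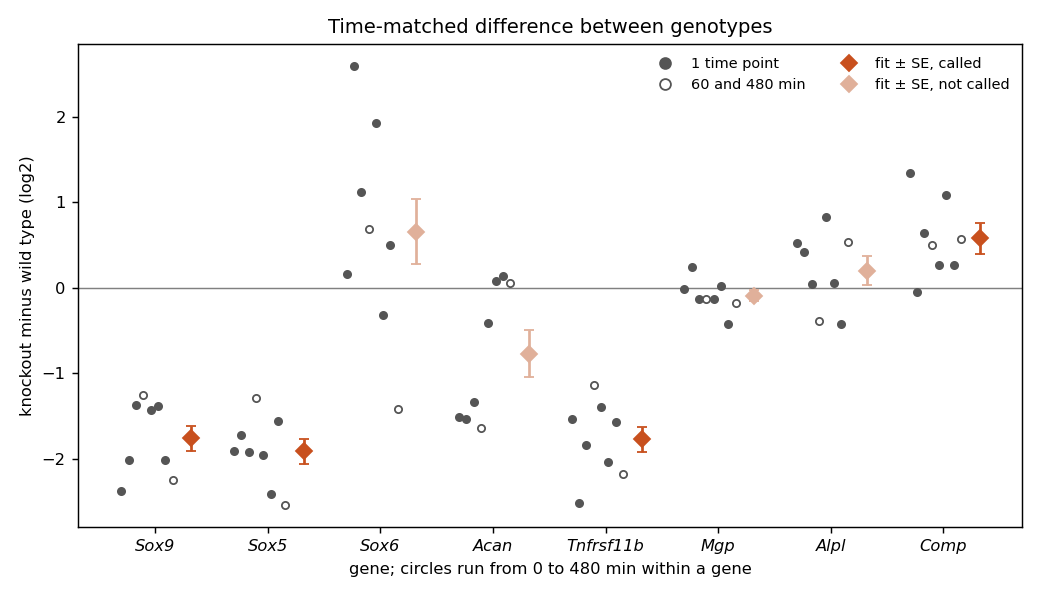
Knockout minus wild type (log2) at each labelled time for the 8 genes, in order from 0 to 480 min within a gene, with 60 and 480 min as open circles, and the fitted difference ± SE as a diamond, dark where it passed an adjusted p of 0.05. All 8 circles lie below 0 for Sox9, Sox5 and Tnfrsf11b, those of Mgp lie close to 0, and the Acan circles split into 4 between -1.64 and -1.33 and 4 between -0.41 and 0.13.

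The genes whose course over the 16 arrays was most like each called gene were found by Pearson correlation of log2 signals. For Sox5 they were Igf2 (r = 0.986), Eya4 (0.979) and Sytl2 (0.979), and for Tnfrsf11b Eya4 (0.976), Igf2 (0.971) and Nexn (0.97). Sox5 and Tnfrsf11b correlated with each other at r = 0.968 over 16 arrays, 0.864 within wild type and 0.416 within the knockout, each over 8 arrays. The wild-type array labelled 60 min was lowest for both genes, at 86.8 for Sox5 and 549.6 for Tnfrsf11b. The other wild-type arrays ran from 116.1 to 162.7 for Sox5 and from 844.1 to 1082.7 for Tnfrsf11b. The wild-type correlation was not computed without this low array, so a stronger correlation in wild type than in the knockout is not shown. For Sox9, which also moved with time, the most similar genes were Fermt2 (0.954), Acbd3 (0.949) and Elk4 (0.944). For Acan they were Upf2 (0.892), Hnrnpu (0.875) and Alg11 (0.871), and for Comp Itgb4 (0.865), Rsph1 (0.836) and Scin (0.829). Arrays share genotype and time, so these values can reflect a shared genotype difference, a shared course over time or both, which were not separated. Sox9 and Acan correlated at 0.567 over all arrays, 0.473 within the knockout and -0.318 within wild type.

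The other genes of these pathways were read from 7 lists of 127 genes, of which 92 were tested. Between genotypes 17 of the 92 were higher and 22 lower (16.6% and 14.1% of all genes were), with a median difference of -0.088 against -0.018 for all genes. Some genes, such as Col2a1 and Dcn, stand both here and among the cell type markers given further on. Over time 15 of the 92 were higher and 24 lower in wild type (15.3% and 22% of all genes were), and 11 and 13 in the knockout (8.74% and 10.7%), and the counts of each list stand against these shares. The genes below are those with the smallest p-values in each list. Without 60 and 480 min, 20.9% of all genes were higher between genotypes and 20.2% lower. Higher and lower counts were then 2 and 4 for cartilage matrix and 0 and 7 for lecticans, thrombospondins and aggrecanases. They were 4 and 6 for chondrocyte and limb regulators, and 4 and 7 for osteoblast regulators. Bone matrix had 5 and 1, mineralization control 5 and 2, and the RANKL axis 1 and 1.

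Among 13 tested genes of cartilage matrix, 4 were lower and 2 higher in the knockout (median -0.103). Col2a1, the main collagen of cartilage and a Sox9 target, had the largest difference: 476.4 to 795.2 in wild type and 6.3 to 32.7 in the knockout (-4.63 ± 0.176, adjusted p = 2.663e-08). Fmod, a small proteoglycan that binds collagen fibrils, was lower (-2.61 ± 0.263, adjusted p = 3.339e-05), as was Col11a1, a fibrillar collagen of cartilage (-0.90 ± 0.219, adjusted p = 0.00965). Prg4, the lubricin of joint surfaces and mesothelium, was higher, at 246.2 to 586.0 against 19.9 to 52.4 (3.72 ± 0.168, adjusted p = 8.693e-08). From early to late, Cspg4, the NG2 proteoglycan of mural cells, rose by 1.95 in wild type (adjusted p = 0.0001322) and 1.53 in the knockout (adjusted p = 0.00216), and Prelp fell (-1.24, adjusted p = 0.0005575, and -0.81, adjusted p = 0.0186). The list had 1 gene higher and 3 lower over time in wild type and 1 and 1 in the knockout.

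Of 14 tested lecticans, thrombospondins and aggrecanases, the families of Acan, Comp and the enzymes that cut aggrecan, 5 were lower and none higher in the knockout (median -0.352). Adamts9, a versican- and aggrecan-cutting protease, stood at 346.6 to 2585.0 in wild type and 23.1 to 88.3 in the knockout (-4.34 ± 0.429, adjusted p = 2.901e-05). It fell by 2.13 from early to late in wild type (adjusted p = 2.52e-05), and its change in the knockout was -0.54 (adjusted p = 0.152). Hapln4, a link protein (-0.83 ± 0.145, adjusted p = 0.00141), Thbs1 (-0.57 ± 0.120, adjusted p = 0.00431) and Vcan, the versican of vessel wall (-0.65 ± 0.217, adjusted p = 0.0429), were lower too. Comp, a thrombospondin, and Thbs1 thus lay on opposite sides. The aggrecanase-family gene Adamts1 fell over time (-2.65 in wild type, adjusted p = 0.0001179, and -2.14 in the knockout, adjusted p = 0.0016), and Adamts5, the main aggrecanase of mouse cartilage, fell by 2.45 in the knockout (adjusted p = 0.00154) and fell by 2.90 in wild type (adjusted p = 0.00016). Between genotypes, Adamts1 (-1.03, adjusted p = 0.189) and Adamts5 (-0.71, adjusted p = 0.36) were not called over all times. Without 60 and 480 min both were called lower in the knockout (-1.11, adjusted p = 5.438e-06, and -0.82, adjusted p = 4.288e-05). Over time 4 genes of the list were lower in wild type and 2 in the knockout, and none was higher.

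Regulators of chondrocytes and limb skeleton split 3 higher and 5 lower of 17 tested (median -0.173). Fgfr3, the receptor that restrains cartilage growth, was higher (1.15 ± 0.141, adjusted p = 0.0001284), and so was Chrd, a BMP antagonist (0.64 ± 0.128, adjusted p = 0.00307). Prrx1, a mesenchymal homeobox factor (-1.14 ± 0.221, adjusted p = 0.00258), and Ptch1, the Hedgehog receptor (-0.71 ± 0.108, adjusted p = 0.0005614), were lower. Both also changed over time, Prrx1 by -1.51 in wild type (adjusted p = 1.855e-05) and -1.02 in the knockout (adjusted p = 0.00111), and Ptch1 by -1.16 (adjusted p = 0.0001283) and -0.74 (adjusted p = 0.00782). Sox4, another SOX factor, fell by 0.64 in wild type (adjusted p = 0.0001954) and fell by 0.45 in the knockout (adjusted p = 0.00647). The list had 1 gene higher and 7 lower over time in wild type and 5 lower in the knockout.

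With Runx2 itself not analysed here, the 20 tested osteoblast regulators were 4 higher and 4 lower over all times (median -0.061). Without 60 and 480 min they were 4 higher and 7 lower. The Runx2 relative Runx3 was higher (2.18 ± 0.208, adjusted p = 2.284e-05), at 73.8 to 173.7 in the knockout and 9.4 to 35.3 in wild type. Twist1, which restrains Runx2 activity in early skeletal cells, was higher (0.56 ± 0.086, adjusted p = 0.0005916), and its relative Twist2 lower (-0.76 ± 0.104, adjusted p = 0.0002715). Atf4, an activator of late osteoblast genes, was lower (-0.36 ± 0.052, adjusted p = 0.0004392) and rose over time by 1.02 in wild type (adjusted p = 0.0002676) and 1.05 in the knockout (adjusted p = 0.000615). Bmp4 fell by 1.64 in wild type (adjusted p = 3.498e-08) and fell by 1.06 in the knockout (adjusted p = 5.167e-06). Dkk1, a secreted Wnt inhibitor, fell by 3.59 in wild type, from 339.7 to 419.1 early to 25.2 to 28.2 late (adjusted p = 6.105e-06), while in the knockout it stood at 1.0 to 20.0 on all arrays. The difference between the 2 changes was called for Dkk1 and for no other of the 92 genes (2.85 ± 0.507, adjusted p = 0.0218). The knockout signal lay close to or below the filter from 0 min on, so a fall as in wild type could not have been measured there, and with 60 and 480 min added as labelled limma called 0 genes for this difference (883 at an unadjusted p under 0.05). Over time 5 genes of the list were higher and 3 lower in wild type, and 4 and 2 in the knockout.

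Bone matrix genes were 4 higher and 1 lower of 8 tested (median 0.299). The 4 were Sparc, or osteonectin (0.44 ± 0.048, adjusted p = 5.124e-05), Postn, or periostin (0.78 ± 0.193, adjusted p = 0.0102), Bgn, or biglycan (0.15 ± 0.038, adjusted p = 0.00973), and Dcn, or decorin (0.56 ± 0.176, adjusted p = 0.0328). Col1a2, a chain of type I collagen, was lower (-0.33 ± 0.087, adjusted p = 0.0147). These are abundant in most fibrous tissues as well as in bone. In these cultures Postn was dim, at 13.1 to 38.6 in wild type and 36.4 to 63.6 in the knockout. Dcn fell by 0.53 over time in wild type (adjusted p = 0.0005698), and Col1a2 changed by -0.32 there (adjusted p = 0.00179) and -0.30 in the knockout (adjusted p = 0.00653), where Omd, a keratan sulfate proteoglycan of bone, fell by 0.87 (adjusted p = 0.0057) and changed in wild type as well (-0.70, adjusted p = 0.00971). Between genotypes Omd was not called over all times (0.83, adjusted p = 0.1355). It was called higher without 60 and 480 min (0.94, adjusted p = 2.432e-06). The list had 5 genes lower over time in wild type, 2 in the knockout and none higher.

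Among 14 tested genes of mineralization control, which surround Mgp and Alpl, 4 were higher and 2 lower in the knockout (median 0.002). Nt5e, the ectonucleotidase CD73 whose product adenosine restrains arterial calcification, was at 249.3 to 420.5 against 24.3 to 76.0 (2.70 ± 0.202, adjusted p = 3.726e-06). Smpd3, a sphingomyelinase needed for bone mineralization (2.17 ± 0.103, adjusted p = 1.16e-07), and Gas6, a vitamin K-dependent ligand of Axl (1.20 ± 0.276, adjusted p = 0.00712), were higher as well. Ggcx, the carboxylase that activates matrix Gla protein, was lower (-0.70 ± 0.127, adjusted p = 0.00178). The phosphate carriers Slc20a1 and Slc20a2 did not pass the test between genotypes and rose over time, Slc20a1 by 1.56 in wild type (adjusted p = 8.989e-06) and 1.21 in the knockout (adjusted p = 0.0002079), and Slc20a2 by 0.996 (adjusted p = 0.0008325) and 0.72 (adjusted p = 0.0149). Over time 5 genes of the list were higher and 2 lower in wild type, and 3 and 1 in the knockout.

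The RANKL axis, to which Tnfrsf11b belongs, had 1 of 6 tested genes lower and none higher (median -0.058). Nfatc1, the transcription factor downstream of RANK in osteoclasts, was at 330.7 to 1428.1 in wild type and 109.9 to 624.4 in the knockout (-1.52 ± 0.109, adjusted p = 2.852e-06). It rose from early to late by 1.496 in wild type (adjusted p = 0.0008968) and by 1.94 in the knockout (adjusted p = 0.0003541). Csf1, the macrophage growth factor, rose by 1.33 (adjusted p = 3.827e-07) and 0.76 (adjusted p = 0.0001243). Between genotypes Csf1 was not called over all times (0.40, adjusted p = 0.0554). It was called higher without 60 and 480 min (0.36, adjusted p = 0.0109). In each genotype 3 genes of the list were higher over time and none lower. The RANKL gene Tnfsf11 is on the array but did not reach the filter signal on 3 arrays and was not tested.

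**Figure D5:**
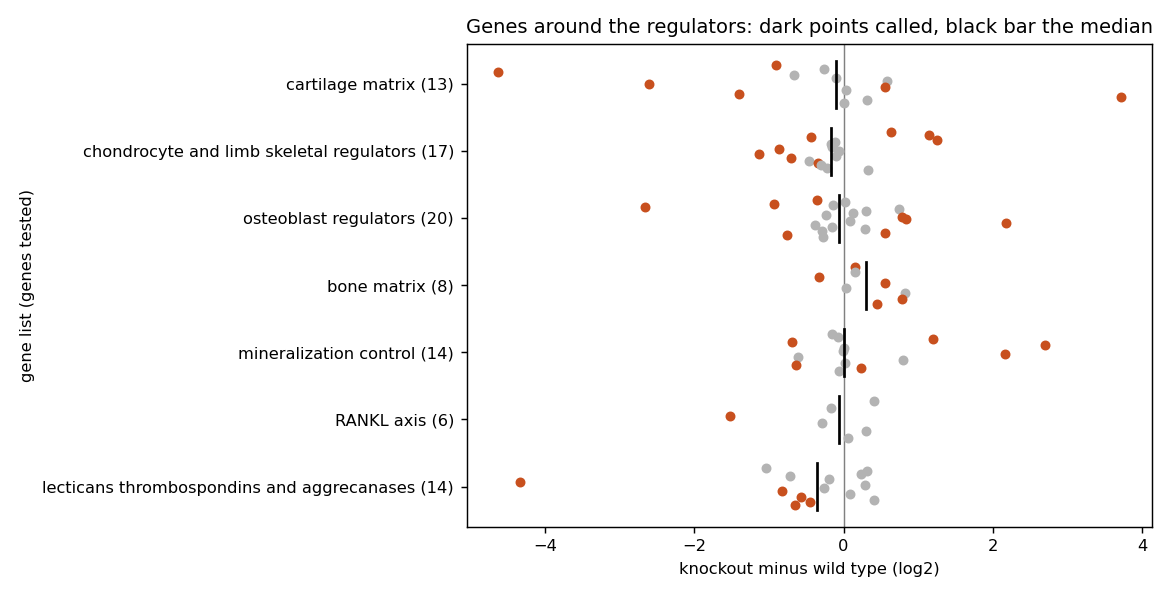
Difference between genotypes (log2, knockout minus wild type) of every tested gene in 7 lists around the regulators, with genes that passed an adjusted p of 0.05 in dark orange, the others in grey and the list median as a black bar. The medians lie between -0.352 and 0.299, and Col2a1 (-4.63), Adamts9 (-4.34) and Prg4 (3.72) lie farthest from 0.

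Markers of cell types moved with genotype beside these genes. Of the 8 tested genes of contractile smooth muscle, 6 were lower in the knockout and none higher. Their summed signal was 11430 to 15500 in wild type and 6361 to 9447 in the knockout. Most of this sum was Acta2 and Tagln, the latter at 2528.2 to 4363.9 and 721.8 to 2367.6. Acta2, whose protein was stained for purity, was at 8216.9 to 9637.6 and 5203.3 to 6659.6, and Cnn1, the calponin of that stain, at 41.4 to 270.6 and 2.9 to 46.2. This sum also rose from early to late, from at most 12320 to at least 15100 in wild type and from at most 6675 to at least 7819 in the knockout. Of the 8 mesothelial and epithelial markers, 6 were higher and 1 lower, with sums of 1279 to 1850 in wild type and 11170 to 13780 in the knockout. Of the 6 tested adventitial fibroblast markers, 4 were higher (Thy1 3.12, Serpinf1 2.89, Dpt 2.50 and Dcn 0.56) and 1 lower (Lum -3.1). Over all times their sums overlapped (1801 to 6748 and 2891 to 5146). At 0 to 30 min the sums did not overlap and were higher in wild type (6141 to 6748 against 4498 to 5026). At 120 to 240 min they overlapped (3376 to 3985 and 3689 to 4501). The part of these cell types in the differences of Sox9, Sox5, Tnfrsf11b and Comp was not tested.

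Chondrocyte markers gave sums of 549.4 to 864.1 in wild type, most of it Col2a1, and 69.9 to 115.0 in the knockout, where Col2a1 was at 6.3 to 32.7, with 1 lower and 1 higher (Matn3, 0.55 ± 0.176, adjusted p = 0.0347). Their members Col9a3, Matn1, Hapln1 and Chad stayed below the test's signal filter. Osteoblast markers lay mostly below the filter: of 5 on the array only Sp7 was tested, at 24.7 to 43.8 and 18.9 to 33.2, with no called difference, and Ibsp, Dmp1, Phex and Mepe were too dim. Osteoclast markers were 1 higher of 4 tested (Ctsk, 1.34 ± 0.269, adjusted p = 0.00319). Ctsk was dim, at 1.8 to 14.4 in wild type and 4.4 to 36.0 in the knockout. None of 2 endothelial markers was called, with Pecam1, Cdh5, Vwf and Tie1 too dim to test, and 1 of 4 leukocyte markers was higher while Ptprc and Itgam were too dim. Sox9, Sox5 and Tnfrsf11b were thus above the filter signal on all 8 arrays of each genotype. Col2a1 was well above it in wild type and close to it in the knockout. Several defining chondrocyte and osteoblast genes stayed below the filter.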

How the data were processed

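The deposited table holds signal intensities on a linear scale for 45101 probe sets on 16 arrays, which the authors computed in MAS5 according to the submitters' processing notes; no source used here gives the version or the scaling target. Genotype and time came from the sample titles, and symbols from the platform annotation (34945 probe sets with 1 symbol, 932 with several), of which 34741 were matched by gene ID to RefSeq GRCm38.p6.

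Intensities were quantile normalized (R 4.3.3, limma 3.58.1) and tested on the log2 scale after adding 4.86, which is the 20th percentile of all normalized values and understates changes of dim genes. Probe sets above 16 (40th percentile) on at least 3 arrays were kept, and a gene was read from its brightest one, which gave 14299 genes. limma (lmFit, eBayes with trend) was fitted in 2 ways: genotype with time as a factor on 16 arrays (7 residual degrees of freedom), and 4 groups of 3 arrays, early and late in each genotype, on 12 arrays (8 residual degrees of freedom). P-values were adjusted by Benjamini-Hochberg over all genes tested and called at 0.05. Times within a phase served as replicates, since each genotype and time has 1 array; precision is limited by how many arrays there are. The first fit is paired by time; the closing section gives it without that block. The scripts were tested on simulated data.

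The genes and lists were chosen with earlier results of these data known. Named were all 9 genes, in each list up to 4 genes with the smallest p-values between genotypes and up to 2 in each late minus early contrast, and the 3 genes most correlated with each called gene. Exceptions, named for the cell check, are markers and Hey2. Scaling, offset, filter, probe set rule, variance trend, time block, the 60 and 480 min arrays and single arrays were varied; fitting each probe set on its own was added after seeing the data.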

Additional observations from a re-analysis of the deposited data

Results flagged for a closer look

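The change of Acan from early to late pointed in opposite directions in the 2 genotypes. All 3 late knockout arrays (10.5 to 17.7) lay above all 3 early ones (2.7 to 4.2), while all 3 late wild-type arrays (12.9 to 15.7) lay below all 3 early ones (16.7 to 20.8). The knockout change minus the wild-type change was 1.39 ± 0.438 (log2, SE), with an adjusted p of 0.214 over all genes in the limma fit, so this difference did not pass the test. The wild-type change alone was -0.23 ± 0.310 and was not called in that fit (adjusted p = 0.616), so a fall in wild type was not established. All these signals lie near or below the filter signal of 16.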

How the results depend on the processing

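Sox9, Sox5 and Tnfrsf11b were lower in the knockout and called under each of the alternatives run, and the Sox9 rise was called in both genotypes except with 60 and 480 min added as labelled. Counts of all genes depended more on the setting. With 60 and 480 min as labelled, limma called 0 genes for the difference between the changes (883 at an unadjusted p under 0.05; 110 in the fit reported), 75 from early to late in the knockout (2775) and 254 in wild type (5328), and 0 of the 8 genes in wild type and 1 in the knockout. On the deposited scale the counts were 1, 230 and 691, with 2156 between genotypes (4393; 1892 of them higher) and 1 of the 8 genes from early to late in the knockout. For the difference between the changes, 44 genes were called with the mean of probe sets and 5 without the variance trend. With time as a replicate block the count was 588; the Acan genotype difference without the time block was called (adjusted p = 0.0447), as it was without trend (0.0491) and after trimmed-mean scaling (-0.83, 0.041). Leaving out 1 array gave 19 to 340 genes for that difference, 1704 to 3546 genes in the knockout contrast, and 1 to 3 of the 8 genes there.

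Reversed signs fell on changes that were not called. With 60 and 480 min as labelled the values were 0.10 for the Alpl, -0.014 for the Sox9 and -0.040 for the Tnfrsf11b difference between changes, and 0.025 for Sox5 and 0.066 for Tnfrsf11b in wild type. With the mean of probe sets they were 0.077 (Sox5) and -0.69 (Sox9) for the difference between changes and 0.076 for Tnfrsf11b in wild type. On the deposited scale they were 0.22 for Mgp in the knockout, 0.27 for Mgp between genotypes and 0.22 for Tnfrsf11b in wild type; Comp in the knockout was -0.057 after trimmed-mean scaling. Leaving out single arrays, the difference between changes ran from -0.56 to 0.12 for Alpl, -0.31 to 0.17 for Comp and -0.28 to 0.075 for Sox5. The knockout change ran from -0.13 to 0.22 for Comp, -0.13 to 0.019 for Mgp and -0.17 to 0.26 for Tnfrsf11b, and the wild-type change from -0.10 to 0.32 for Comp and -0.23 to 0.73 for Sox6. The cause was not tested. Signals near the filter limit what Acan, Sox6, Alpl and Comp can show.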
